A study of Drosophila melanogaster with 3 samples.

Results

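The 36 genes described here encode the machinery that copies the genome and drives cells through the cell cycle in Drosophila melanogaster, and the data are peaks of chromatin occupancy by the homeodomain transcription factor B-H1 (BarH1). Members were picked by name from the Ensembl annotation, and all 36 were matched among 13945 protein-coding genes on the 6 chromosome arms. They fall into 8 roles: 6 subunits of the origin recognition complex, 3 licensing genes, 6 subunits of the MCM helicase, 3 genes of origin firing and the fork, 2 of nucleotide supply, 4 of the E2F and RB system, 10 cyclins and genes of CDK control, and 2 activators of the anaphase-promoting complex (APC/C). Chromatin immunoprecipitation with sequencing (ChIP-seq) was done on whole embryos, 8 to 24 hours old by the source label, from transgenic flies making B-H1 fused to enhanced green fluorescent protein. The labels describe an antibody against GFP, although a separate antibody label names B-H1. There was 1 group of 3 biological replicates, all of the B-H1-GFP strain, and no second condition, so the comparisons are between replicates and between genes. Because whole embryos were pooled, binding in few cells and weaker binding in many cells cannot be told apart.

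Replication starts where the origin recognition complex marks DNA and, with Cdc6 and Dup (the Cdt1 protein), loads the MCM helicase. Geminin blocks that loading, and Cdc7 kinase together with cyclin-dependent kinases (CDKs) fires the loaded origins. E2F factors paired with Dp switch on many S-phase genes, and Rbf, the fly RB protein, holds them back. In fly embryos, cells of the epidermis stop dividing in mid-embryogenesis, while neural precursors go on dividing and several larval tissues enter endocycles, rounds of DNA synthesis without mitosis.

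A region was a merge of overlapping peaks from the 3 replicates' thresholded lists and the authors' conservative list for the whole series. A gene had a region where the summit lay within 1 kb of one of its transcript start sites (TSSs) or inside its span. The strength of a peak is given as its percentile of the authors' signal within one list, where 100 is the strongest, since the scale of that signal is not stated. Every list also exists in a ranked form with weaker peaks, each with a −log10 of its global irreproducible discovery rate (IDR), an estimate of how likely a peak is not to repeat. Higher values are better, 2 is the authors' threshold (an IDR of 0.01) and the values stop at 5. On the arms, 1971, 3609 and 2199 peaks of replicates 1, 2 and 3 passed the threshold, out of 101546, 97966 and 72939 ranked peaks. Read depth is not known from the sources used here, and no interval for counting error is given.

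Of the 36 members, 12 had a region in any list, which is 33.3%, against 23.8% of all protein-coding genes. These 12 were Mcm2, dpa, dup, Cdc7, RnrS, E2f1, Dp, CycE, Cdk1, Cdk4, stg and fzr. With the gene span left out, 11 members (30.6%) had a region, against 20.3% of all genes. A region with a peak in 3 of 3 replicates was found at 4 members (11.1%), namely Cdc7, Cdk1, CycE and Dp, against 9.97% of all genes. Within 1 kb of a TSS it was found at Cdk1, CycE and Dp, 3 members (8.33%), against 7.9% of all genes. With a peak required in 3 of 3 replicates, the share of members was therefore close to that of genes at large. Other rules put it above or below that share. Leaving out a replicate asks for a peak in the remaining 2 alone, an easier rule. Without replicate 2, such regions were found at 7 members (19.4%), with Cdk4, Mcm2 and RnrS added, against 11.1% of all genes. Without replicate 1 or replicate 3 they were found at 5 members each (13.9%), against 11.8% and 11.2%. Within 1 kb of a TSS, the count without replicate 2 was 6 members (16.7%), against 8.95%. Without replicates 1 and 3 in turn it was 3 (8.33%) and 4 (11.1%), against 9.37% and 8.76%. Asking for 2 of 3 replicates gave 9 of 36 members, a higher share than the 14.1% of all genes. Keeping the upper 50% of each list by signal left Dp alone (2.78%), against 6.23%. In the conservative list, 11 members (30.6%) had a region, against 17.7% of all genes.

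**Figure D1:**
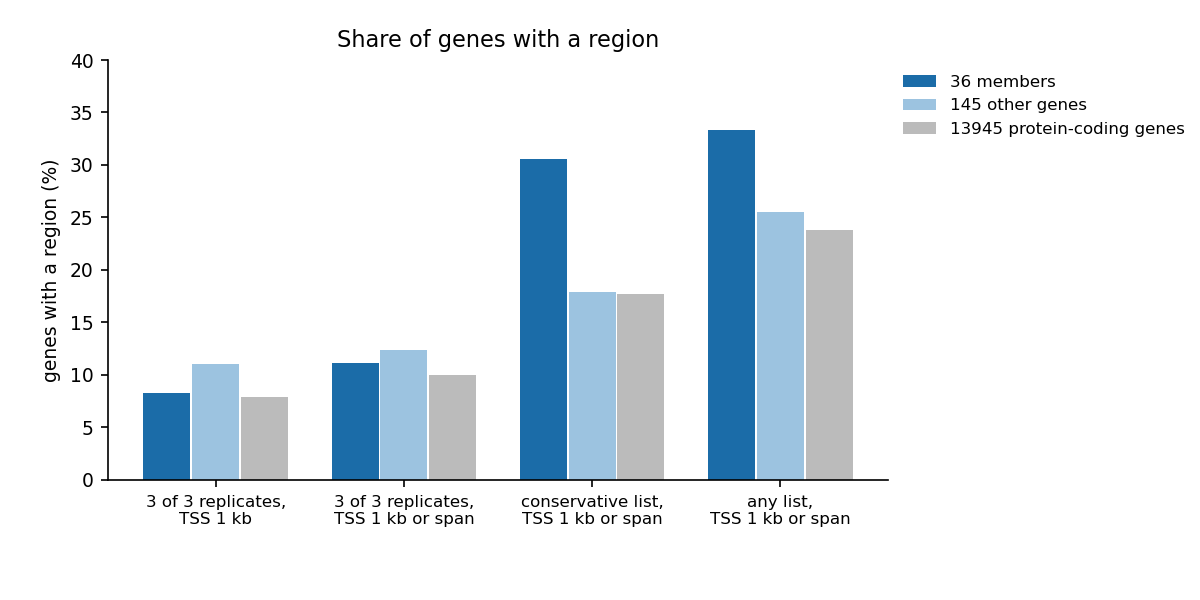
The share of genes in percent (vertical axis) with a region under each of 4 rules (horizontal axis) for the 36 members, 145 other replication and cell cycle genes and 13945 protein-coding genes. The members' bars stand close to the grey bars of all genes for regions in 3 of 3 replicates (8.33% and 11.1%, against 7.9% and 9.97%) and above them in the conservative list and in any list.

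Members were larger genes with more start sites than genes at large. Their median span was 2883 bp, against 2166 bp for all genes, and they had a mean of 1.64 TSSs, against 1.41. Among the members, the 12 with a region had a median span of 4769 bp and a mean of 2.42 TSSs, against 2791 bp and 1.25 TSSs for the 24 without. The part of gene size in the counts was not tested.

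Regions at members numbered 18, and no region was shared by 2 members. Of these, 5 had a peak in 3 of 3 replicates, 5 in 2 and 8 in 1, and 6 of the last 8 came from replicate 2, which has the longest list. Of all 4377 regions, 1373 had a peak in 3 replicates, 710 in 2 and 1998 in 1, and 296 were in the conservative list alone. The conservative list held 13 of the 18 member regions. Summits lay within 1 kb of a TSS of the member for 13 regions, all 13 within 563 bp, and 10 of those were upstream of the TSS. By position in the member's own gene, 6 regions were upstream of it, 8 in an intron, 3 in a 5′ UTR and 1 in a coding exon. At 8 regions another gene's TSS was also within 1 kb of the summit, so which gene such a region belongs to cannot be told from its position. The regions had a median width of 342 bp, against 340 bp for all 4377 regions, and a median GC content over 201 bp at the summit of 37.0%, against 35.3%.

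**Figure D2:**
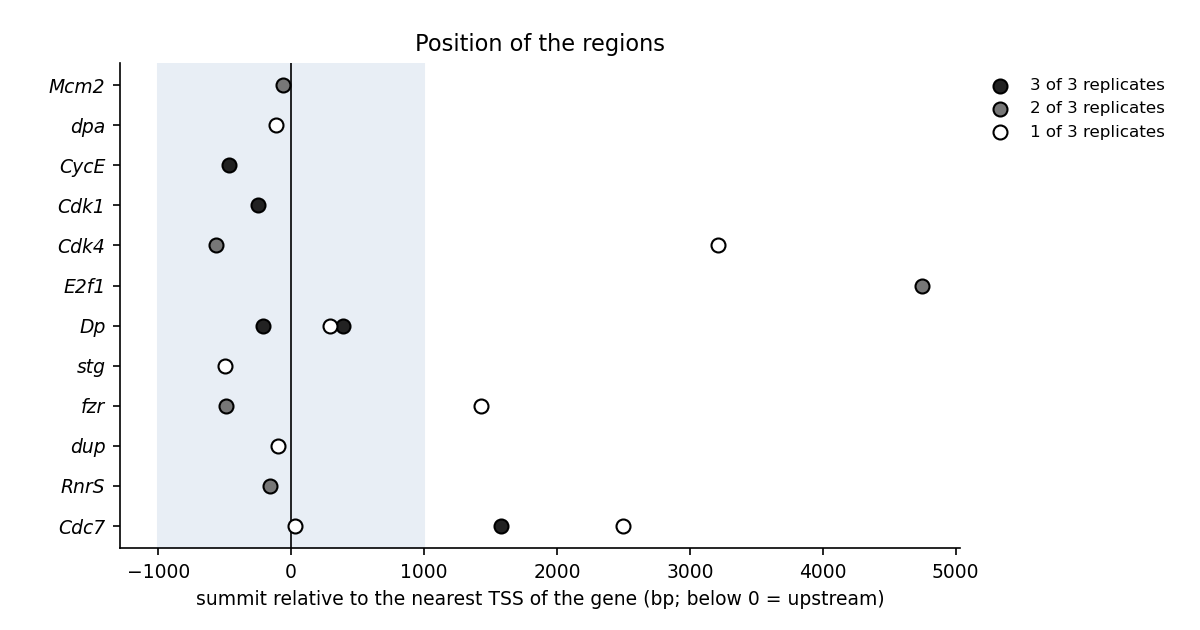
The distance in bp of each of the 18 summits from the nearest TSS of the member (horizontal axis; values below 0 are upstream), with 1 line per member and the fill of a point giving the number of replicates. The shaded band is 1 kb on each side of the TSS; 13 summits lie in it, and those at E2f1, Cdk4 (the second region), fzr (the first) and Cdc7 (2 of its 3) lie outside, within the gene.

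The sequences under the summits of 5 regions outside exons are shown first, to set 4 regions near a TSS beside 1 farther inside a gene. They are 5′ to 3′ on the gene's strand, from Release 6 of the genome, and capitals mark any match to the motifs searched on both strands: the DNA replication-related element (DRE) core TATCGA, the 4 E2F sites TTTCGCGC, TTTGGCGC, TTTCCCGC and TTTGCCGC, and the Bar homeodomain words TAATTG and TAAACG. The Mcm2 sequence is 3R:8264810-8264969 and ends at the base before the TSS, that of CycE is 2L:15747001-15747180, that of Cdk1 is 2L:10386409-10386609, that of stg is 3R:29256200-29256400 and that of Cdc7, in an intron, is X:6656161-6656361. The CycE sequence, with 20.6% GC, and the Mcm2 sequence, with 35.6% GC, held no match. In the Cdk1 sequence TAATTG occurred 3 times on the 2 strands. The stg and Cdc7 sequences each held 1 TATCGA and no E2F site.
Mcm2: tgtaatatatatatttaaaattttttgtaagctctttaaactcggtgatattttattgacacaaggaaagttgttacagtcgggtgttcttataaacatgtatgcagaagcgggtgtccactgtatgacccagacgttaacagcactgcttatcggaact
CycE: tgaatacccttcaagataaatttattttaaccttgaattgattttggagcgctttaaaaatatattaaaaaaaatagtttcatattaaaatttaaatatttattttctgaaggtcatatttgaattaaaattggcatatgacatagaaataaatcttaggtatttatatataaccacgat
Cdk1: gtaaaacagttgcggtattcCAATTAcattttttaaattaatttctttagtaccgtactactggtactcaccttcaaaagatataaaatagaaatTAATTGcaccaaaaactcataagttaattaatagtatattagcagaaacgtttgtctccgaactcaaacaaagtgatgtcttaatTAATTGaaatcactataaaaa
stg: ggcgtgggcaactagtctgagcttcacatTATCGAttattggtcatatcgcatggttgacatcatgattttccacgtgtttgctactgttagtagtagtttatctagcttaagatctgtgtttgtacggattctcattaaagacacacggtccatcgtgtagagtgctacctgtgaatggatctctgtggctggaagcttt
Cdc7: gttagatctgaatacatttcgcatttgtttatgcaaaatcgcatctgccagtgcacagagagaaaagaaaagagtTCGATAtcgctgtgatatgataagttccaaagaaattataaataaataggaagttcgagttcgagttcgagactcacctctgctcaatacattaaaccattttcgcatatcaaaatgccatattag

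Promoters of the members were searched for the same motifs. The window ran from 250 bp before to 50 bp after each distinct TSS. An E2F site was found at 17 of 36 members (47.2%), against 15.2% of the 145 other genes and 8.69% of all protein-coding genes. E2F sites are a known feature of S-phase genes, so this share is not independent of how the members were chosen. By role, 5 of 6 origin recognition genes, 5 of 6 MCM genes and 2 of 2 nucleotide supply genes held one, while 0 of 4 E2F and RB genes and 0 of 2 APC/C activators did. The DRE core TATCGA was found at 15 members (41.7%), against 60.0% of the other genes and 31.3% of all genes, and its palindrome TATCGATA, which holds 2 overlapping copies of TATCGA on opposite strands, at 7 (19.4%), against 22.8% and 10.2%. Bar words were about as frequent as at genes at large: TAATTG at 12 members (33.3%), against 24.8% of the other genes and 30.3% of all genes, and TAAACG at 7 (19.4%), against 18.6% and 18.2%.

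**Figure D3:**
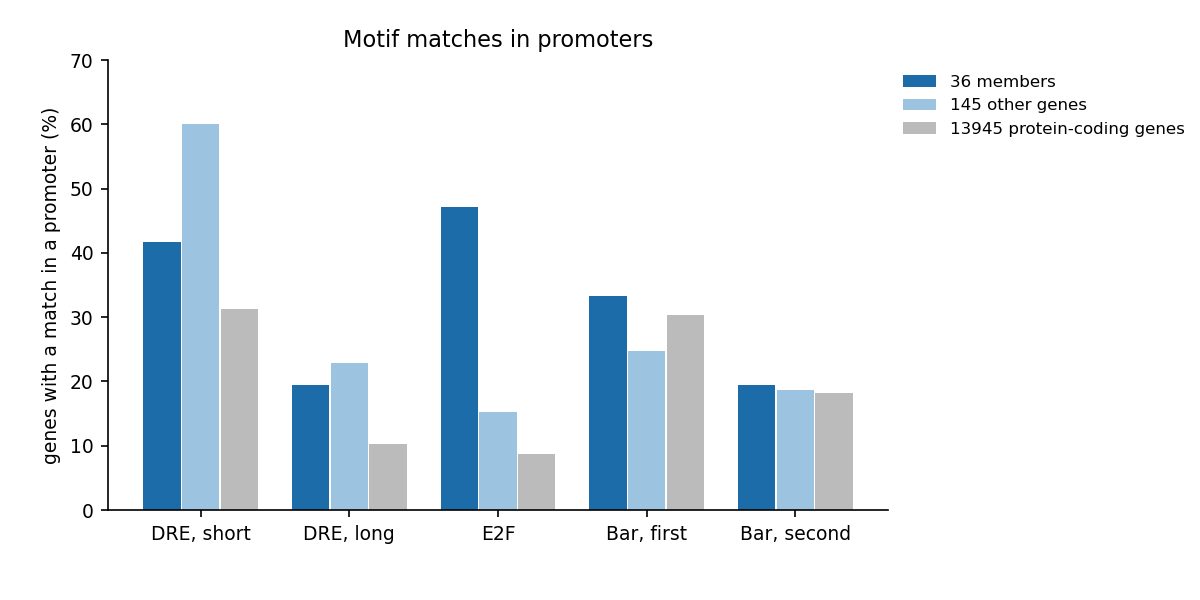
The share of genes in percent (vertical axis) with at least 1 match in a promoter window for 5 motif classes (DRE, short, is the core of 6 letters; DRE, long, is the palindrome of 8; Bar, first and second, are the homeodomain words beginning TAAT and TAAA). The members stand farthest above all genes for E2F sites, at 47.2% against 8.69%.

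The E2F sites of members on arms other than the second chromosome's right arm are shown in 30 bases each, because they let sites inside a B-H1 region be set beside sites outside one. Capitals mark the site, read on the gene's strand, so that a site on the opposite strand appears as its reverse complement. The sites of Mcm2 and Cdc7 lay inside a region, 100 bp and 30 bp from its summit. The arm left out holds dpa, dup and RnrS, whose sites also lay inside a region. The sites shown therefore do not give the share inside regions. The sites of the other 7 genes shown lay outside any region, including both at CycE, which begin 114 and 91 bp before the TSS, closer to it than the CycE summit at 470 bp.
Mcm2: ttagcaaacatTTTCCCGCgcattttcgca
Cdc7: ggaaaagcgatTTTCCCGCcaaaccagggt
Mcm3: cacactacgctTTTCCCGCgaaaaaacttt
Mcm5: cggtaattttgGCGGCAAAatattcgcaca
Mcm6: gtcagaaaaagGCGCCAAAaccgagcaaag
Orc5: agagggaataaTTTGGCGCcatttcaatgg
CycE (TSS-distal): ttgttgcatttTTTGGCGCttcggatccgc
CycE (TSS-proximal): gatccgcctgtTTTGGCGCgttcctcatgc
stg: taaaagctcgcGCGCCAAAatcagtggcct
RnrL (first): aatgactttaaTTTGGCGCctttttgtgct
RnrL (second): gcaacaatcaaTTTGCCGCctcttgtgaaa

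Over the 17 members there were 24 E2F sites, counted on each strand, 15 of them starting upstream of the TSS. The Orc3 sites are overlapping pairs on opposite strands, 27 and 23 bp and 127 and 123 bp upstream of a TSS. Each such pair is a single stretch counted on both strands. Of the 24, 7 lay inside a region, at 5 members: Mcm2, dpa, dup, RnrS and Cdc7. An E2F site was present at 7 of the 12 members with a region and at 10 of the 24 without one. In the 201 bp at the summits, an E2F site occurred in 4 of the 18 member regions (22.2%), at dpa, dup, Cdc7 and fzr, against 3.22% of all 4377 regions. None of these 4 regions had a peak in 3 of 3 replicates. The sites at dpa, dup and Cdc7 are among the promoter sites counted above. Like the promoter share, this share of 22.2% is therefore not independent of how the members were chosen. TAATTG was in 4 of 18 member windows (22.2%), against 18.0% of all windows, and TAAACG in 3 (16.7%), against 8.68%. The TAAACG windows were at Dp and fzr alone, and with so few nothing is read from that share. TATCGA was in 11.1% of the member windows, against 11.1%, and TATCGATA in 0 of 18, against 2.47%. These matches describe letters, and binding by E2F, the DRE factor or B-H1 at them was not measured.

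None of the 6 origin recognition genes had a region, against 23.8% of all genes, and with 6 genes nothing is read from that count. Orc1 to Orc6 encode the complex that marks origins, and the nearest region to them was 3283 bp from a TSS of Orc5 and the farthest 18841 bp from Orc2. In the ranked lists, replicate 2 had a peak within 1 kb of a TSS of all 6, replicate 1 of Orc1, Orc3 and Orc5, and replicate 3 of Orc2, Orc3, Orc5 and Orc6. For the ranked peak with the highest signal at each gene, −log10 IDR was highest at Orc3 in replicate 2, at 1.13, below the threshold of 2. The lowest was 0.0246, at Orc1 in replicate 1.

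Among the licensing genes, dup had a region and geminin and Cdc6 did not. The dup region, 2R:15380522-15380861, lay in the 5′ UTR with its summit 96 bp upstream of another TSS of dup and 14 bp upstream of SRPK, which encodes a kinase of splicing factors. It passed the threshold in replicate 2 alone, at percentile 20.4, and −log10 IDR there was 1.54, 2.43 and 0.0672 in replicates 1, 2 and 3. The conservative list held it at percentile 30.0. At Cdc6, the ATPase that helps load the helicase, the best ranked peaks had −log10 IDR of 0.0624, 0.958 and 0.325 in the 3 replicates, and at geminin, the loading inhibitor, replicate 1 had no ranked peak and replicates 2 and 3 had 0.379 and 0.301.

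Of the 6 helicase subunits, Mcm2 and dpa (the fly Mcm4 gene) had a region and Mcm3, Mcm5, Mcm6 and Mcm7 did not. No subunit had one in 3 of 3 replicates. With 6 genes, nothing is read from these counts beside the 23.8% of all genes with a region in any list. The Mcm2 region, 3R:8264760-8265062, had its summit 60 bp upstream of the TSS and 459 bp upstream of that of RPA1, which encodes a subunit of the single-strand binding protein of the fork. Replicates 1 and 3 gave percentiles of 57.8 and 44.9, with a mean of 51.4 ± 9.09 (SD, n = 2). Replicate 2 stood apart there: −log10 IDR was 4.03 and 3.27 in replicates 1 and 3 but 0.168 in replicate 2, and the conservative list did not hold the region. At dpa, the region at 2R:7499837-7500176 was in the 5′ UTR, 116 bp upstream of another TSS and 154 bp upstream of didum, a myosin gene. It passed in replicate 3 alone, at percentile 43.6, with −log10 IDR of 1.49, 1.83 and 3.87 in replicates 1, 2 and 3, so that all 3 replicates ranked a peak there but replicates 1 and 2 fell short of the threshold. Mcm3 just missed the distance rule, with a region 1129 bp from its TSS, and its best ranked peaks within 1 kb had −log10 IDR of 0.158, 0.0719 and 0.101. Mcm5, Mcm6 and Mcm7 had no ranked peak in replicate 1 and at most 0.487, at Mcm6 in replicate 2, in the others.

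Cdc7, the kinase that triggers loaded helicases, had 3 regions, and the one with a peak in all replicates was in an intron, at X:6656111-6656505, 1582 bp downstream of the TSS. Its percentile was 69.3, 71.2 and 15.9 in replicates 1, 2 and 3, a mean of 52.1 ± 31.4 (SD, n = 3). Replicate 3 was thus far below the other replicates, with −log10 IDR of 2.76 against 4.89 in replicate 1 and 3.95 in replicate 2. The region at the Cdc7 TSS, X:6654368-6654720, was in the 5′ UTR with its summit 30 bp downstream of the start and 323 bp upstream of CG3226. It passed in replicate 2 alone, at percentile 29.5, with −log10 IDR of 0.372, 2.26 and 1.44 in the 3 replicates. The last, X:6657025-6657324, 2496 bp into the gene, was at percentile 51.8 in replicate 2, and the other replicates ranked no peak there. PCNA, the sliding clamp of the fork, had no region; the nearest was 1099 bp from its TSS, just outside the 1 kb limit, and replicate 2 alone ranked a peak within that limit, with −log10 IDR of 1.06. Mcm10, a fork protein, likewise had a ranked peak in replicate 2 alone, with 0.427.

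RnrS and RnrL encode the small and large subunits of ribonucleotide reductase, which makes the deoxynucleotides, and they differed: RnrS had a region and RnrL did not. The RnrS region, 2R:11985400-11985769, was 160 bp upstream of the TSS, and 455 bp upstream of CG34231. Replicates 1 and 3 gave percentiles of 81.1 and 74.3, with a mean of 77.7 ± 4.79 (SD, n = 2), and −log10 IDR was at the limit of 5 in both. In replicate 2 it was 1.79, just short of the threshold. At RnrL the one ranked peak list with a peak was that of replicate 2, with 0.0719. Both genes carry E2F sites, and both of those at RnrS lay inside the region.

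Dp, which encodes the dimer partner of E2F proteins, had 3 regions, among them the strongest and the weakest of the 18. At 2R:13223227-13223577, in an intron 214 bp upstream of a TSS and 918 bp from that of Fsn, percentiles were 85.0, 80.0 and 80.4 in replicates 1, 2 and 3, a mean of 81.8 ± 2.81 (SD, n = 3). That was the highest mean and, of the 5 member regions in 3 of 3 replicates, the smallest spread. A second region at 2R:13223821-13224179, 392 bp downstream of a TSS, had percentiles of 64.0, 81.7 and 41.9, a mean of 62.6 ± 20.0 (SD, n = 3). The last, 2R:13225466-13225765, was the 1 member region in a coding exon, and it passed in replicate 2 at percentile 10.0, the lowest of all, with −log10 IDR of 2.02. E2f1, the activating E2F, had a region deep in an intron, 3R:21627798-21628142, 4745 bp downstream of the nearest TSS. There replicate 1 ranked no peak, replicate 2 had a percentile of 58.2 and replicate 3 stood at the middle of its list. The mean was 54.1 ± 5.79 (SD, n = 2), with −log10 IDR of 3.47 and 4.01 in replicates 2 and 3. Another region, outside the gene, lay 1689 bp from an E2f1 TSS, beyond the 1 kb limit. E2f2, the repressive E2F, and Rbf had no region: the highest −log10 IDR at E2f2 was 0.946, in replicate 3, and at Rbf 0.217, in replicate 2.

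**Figure D4:**
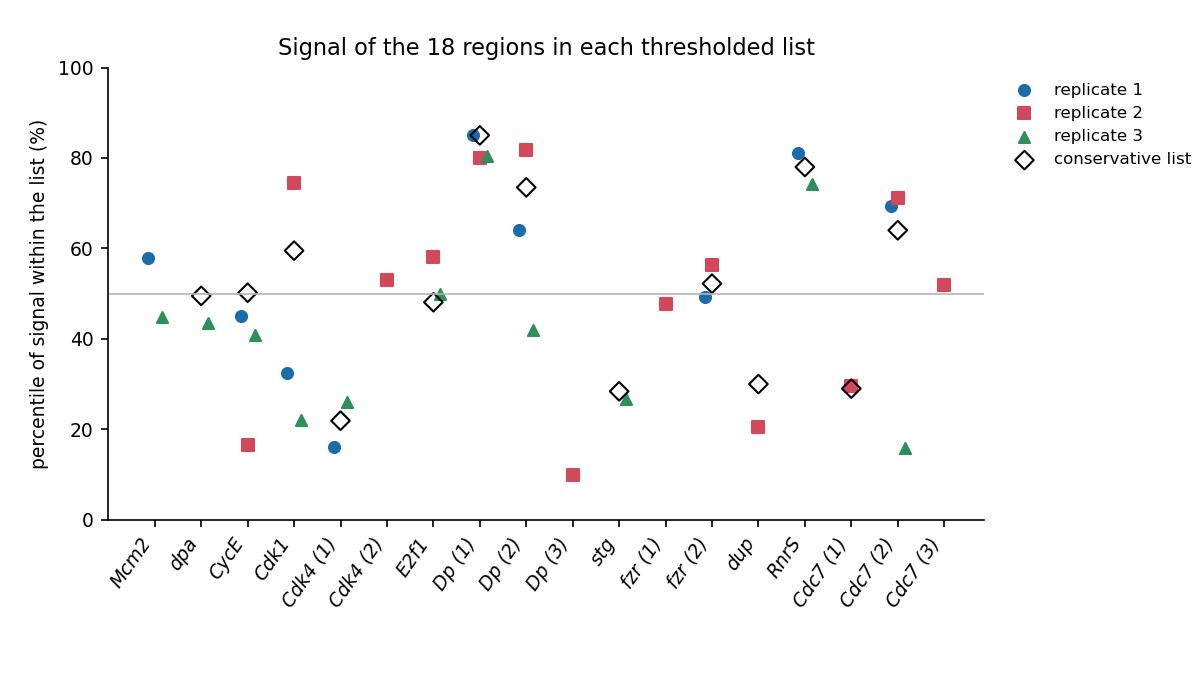
The percentile of signal of each of the 18 regions (horizontal axis, by member, numbered along the chromosome where a member has several) within each replicate's thresholded list and the conservative list (vertical axis, percent; the grey line is the middle of the list). A missing symbol means no peak in that list; Dp (1) lies between 80.0 and 85.0 in all 3 replicates, while Cdc7 (2) runs between 15.9 and 71.2.

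Of the 10 cyclins and genes of CDK control, CycE, Cdk1, Cdk4 and stg had a region. The share of all genes was 23.8%, and with 10 genes nothing is read from that count. CycE, whose cyclin drives entry into S phase with Cdk2, had one in 3 of 3 replicates at 2L:15746870-15747353, in an intron of a longer transcript and 470 bp upstream of the nearest TSS. Percentiles were 45.1, 16.5 and 40.8 in replicates 1, 2 and 3, a mean of 34.1 ± 15.4 (SD, n = 3), all below the middle of their lists. At 484 bp it was the widest member region, and with 23.4% GC at the summit the poorest in GC. Cdk1, the kinase of mitotic entry, had a region at 2L:10386308-10386678, 247 bp upstream of its TSS. The start of mRpS7, a mitochondrial ribosomal protein gene, was nearer, at 153 bp. Here replicate 2 was high, at percentile 74.5, against 32.5 and 22.0 in replicates 1 and 3, with a mean of 43.0 ± 27.8 (SD, n = 3).

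Cdk4, the partner of Cyclin D, had a region 563 bp upstream of its TSS, 2R:16578710-16579056, with percentiles of 16.1 in replicate 1 and 26.1 in replicate 3. In replicate 2 the −log10 IDR there was 0.514, against 2.64 and 2.98 in replicates 1 and 3. Its other region, 2R:16583898-16584197, in an intron 3215 bp into the gene and nearest to the ribosomal protein gene RpLP2, passed in replicate 2 alone, with −log10 IDR of 3.23. The stg region, 3R:29256116-29256455, was 500 bp upstream of the gene for the Cdc25 phosphatase that times embryonic divisions, and 185 bp upstream of CG45544. It passed in replicate 3 alone, at percentile 26.8, with −log10 IDR of 0.582, 1.32 and 3.11. The remaining members of this role, the cyclins CycA, CycB, CycB3 and CycD, the S-phase kinase gene Cdk2 and dap, the CDK inhibitor gene, had no region. Their highest −log10 IDR was 1.63, at dap in replicate 2, and Cdk2 was the member farthest from any region, at 86410 bp.

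fzr, which encodes the Cdh1-type activator that ends mitotic cycles and permits endocycles, had a region 491 bp upstream of its TSS, X:4679842-4680181. Replicates 1 and 2 gave percentiles of 49.3 and 56.3, with a mean of 52.8 ± 4.98 (SD, n = 2), and the −log10 IDR of 0.0657 in replicate 3 was far below those of 3.92 and 3.4 in replicates 1 and 2. Its intronic region, X:4675955-4676254, was in replicate 2 alone, at percentile 47.8. fzy, the Cdc20-type activator of mitosis, had no region and a ranked peak in replicate 2 alone, with −log10 IDR of 1.17.

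Below the threshold the replicates differed widely at the members. A ranked peak within 1 kb of a TSS was present at 19 of 36 members in replicate 1 (52.8%, against 71.1% of all genes), at all 36 in replicate 2 (against 81.0%) and at 26 in replicate 3 (72.2%, against 71.2%). The members were thus below genes at large in replicate 1, above them in replicate 2 and level with them in replicate 3. All 3 replicates ranked one at 17 members, of which 6 had no region. The share of all genes with a ranked peak in all 3 replicates was not counted, so nothing is read from these numbers. At the 24 members without a region, the highest −log10 IDR of the best ranked peak was 0.158, 1.63 and 0.946 in replicates 1, 2 and 3. At the 18 regions, no ranked peak past the IDR threshold was missing from its thresholded list.

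**Figure D5:**
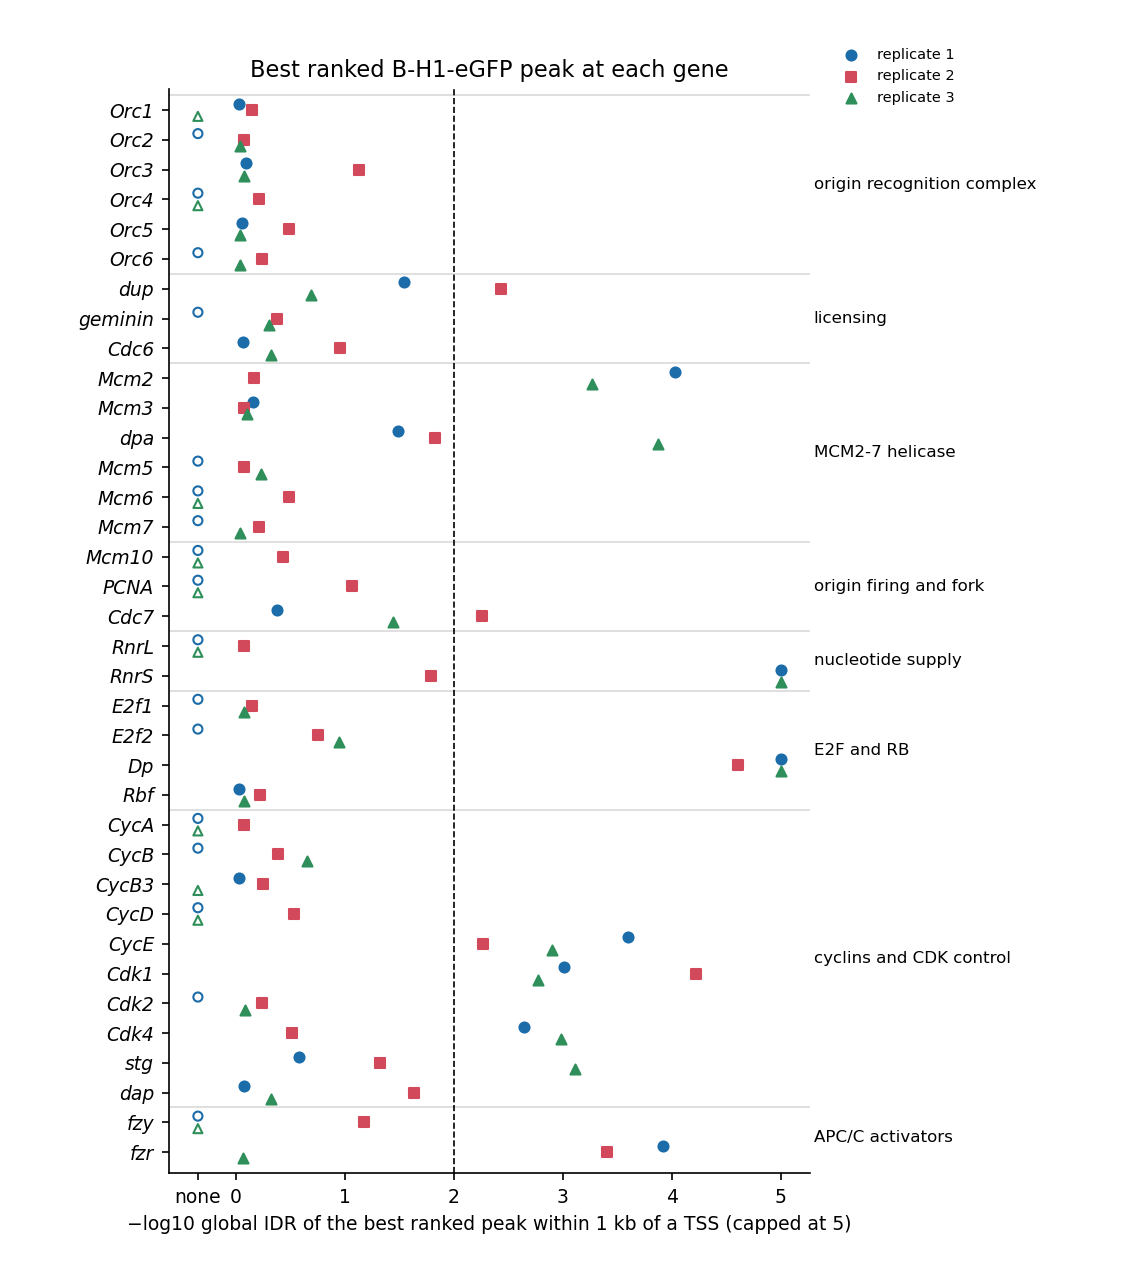
The −log10 global IDR (horizontal axis, capped at 5; the dashed line is the threshold of 2) of the ranked peak with the highest signal within 1 kb of a TSS of each of the 36 members, grouped by role, in each replicate; open symbols mark no ranked peak. Dp stands past 4.5 in all 3 replicates, RnrS and Mcm2 stand past the threshold in replicates 1 and 3 but not 2, and all origin recognition genes lie below it.

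Other genes of replication and the cell cycle, 145 on the arms, were counted by the same rules: 37 (25.5%) had a region in any list, against 23.8% of all genes, and 18 (12.4%) one in 3 of 3 replicates, against 9.97%. Within 1 kb of a TSS, 16 (11.0%) had one in 3 of 3 replicates, against 7.9%. With the gene span taken in again, 26 (17.9%) had one in the conservative list, against 17.7%. These shares were near those of genes at large. The count of 18 was 10 (6.9%, against 6.23% of all genes) when the upper 50% of each list by signal was used. It was 9 when a region was given to the nearest gene alone, and at 6.21%, against 8.1%, these genes were then below genes at large. Some of these genes had stronger regions than any member. chif, which encodes the Dbf4-type partner that activates Cdc7, had percentiles of 96.4, 98.4 and 96.0 in replicates 1, 2 and 3, and PolD2, a subunit of DNA polymerase delta, had 93.2, 98.3 and 93.6. SkpA, of the SCF ubiquitin ligase, averaged 92.0 ± 4.81 and mei-41, the ATR checkpoint kinase gene, 90.1 ± 3.16 (SD, n = 3 each), but each had another gene's TSS nearer to the summit (Hmt4-20 and TH1). The other 11 named by rule, with means between 50.1 and 79.0, were lin-52, Cdc16, SMC2, Top1, Ctf4, sti, SuUR, tefu, Cdk12, SAK and gwl. Cdk12 and SAK share 1 region. At lin-52, SMC2, Ctf4, SuUR, tefu, SAK and gwl too, another gene's TSS was nearer to the summit. Those were CG15771, Ercc1, CG8067, CG32075, Hsc70-4, Cdk12 and PGS1, in that order. By list, a region in any list was found at 7 of 35 genes of the fork and polymerases, 3 of 19 of the APC/C and SCF, 6 of 12 checkpoint genes, 2 of 7 of E2F and Myb-Muv B and 8 of 35 of mitosis. It was found at 5 of 7 genes of the early embryonic cycles and endocycle, 6 of 24 cyclins, kinases and phosphatases and 0 of 6 further nucleotide supply genes. The share of all genes was 23.8%, and with lists this small nothing is read from single counts.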

How the data were processed

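Peaks of B-H1-eGFP ChIP-seq in 3 biological replicates were used as deposited, with dm6 coordinates per the labels. Neither the aligner nor the peak caller is given in the sources used here. Each replicate had its own lists, which per the descriptions that accompany the files come from its filtered alignments and from 1 file, of unstated role, that all replicates have in common, so the replicates are not wholly independent. The authors deposited a signal for every peak without its scale, and it served only to rank peaks within a list. The −log10 of the global IDR is also as the authors deposited it. The labels name a control experiment, which was not analysed here, and read depth is unknown. A separate age label conflicts with the source label and was not used. In 4 ranked lists of the whole series, 32 columns were not matched to a replicate and were not used.

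Peaks on the 6 arms were merged where they overlapped by at least 1 bp into 4377 regions (1373 with a peak in 3 replicates, 710 in 2, 1998 in 1 and 296 in the conservative list alone). The summit came from the replicate with the highest percentile there, and from the conservative list only where no replicate had a peak. Genes came from Ensembl release 115 and sequence from the RefSeq copy of genome Release 6, the same coordinates as dm6. Work was done in Python 3.11.15 with pandas 2.3.3 and numpy 2.4.6, and the assignment of peaks to genes was tested on simulated data. With 1 group and members chosen by name, no test was made, and counts stand beside the same count over all protein-coding genes. The members and lists were chosen with earlier results of these data known. In the list of other genes, 145 of 151 entries were used, 7 of them matched by synonym, while 3 were unmatched and 3 repeated a gene already listed. The gene tim was taken off that list after the files were seen and before its counts were. Named were all members, the genes with the nearest TSS or one within 1 kb at their regions, and up to 15 other genes with a region in 3 of 3 replicates within 1 kb of a TSS, by mean percentile.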

Additional observations from a re-analysis of the deposited data

How the results depend on the processing

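Of 47 alternative counts, 37 stayed within 1.5 times the reported one and 10 did not. Members with a region in 3 of 3 replicates (4 reported) numbered 1, Dp, with the upper 50% of each list by signal, 9 with 2 of 3 replicates and 11 in the conservative list alone, and 5 to 7 when a replicate was left out. Within 1 kb of a TSS (3 reported) these counts were 1, 7 and 10 (2.78%, 19.4% and 27.8%), against 5.07%, 11.3% and 14.4%. When a replicate was left out, 5 to 7 members (13.9% to 19.4%) had a region, against 11.1% to 11.8%. Within 1 kb of a TSS, 3 to 6 members (8.33% to 16.7%) then had one, against 8.76% to 9.37%. Of the counts with a replicate left out, the highest came without replicate 2. Other genes (18 reported) numbered 9 (6.21%) with the nearest gene alone, against 8.1% of all genes. They numbered 10 (6.9%) with the upper 50% of each list, against 6.23%. When a replicate was left out they numbered 18 to 23 (12.4% to 15.9%), against 11.1% to 11.8%. The cause was not tested beyond what the settings change themselves, namely the peaks or replicates needed. Members with a region in any list (12 of 36 reported, against 23.8% of all genes) ranged from 9 to 15. With the upper 50% of each list they were 9 of 36, against 13.9% of all genes. With 2 kb around a TSS they were 15 of 36, against 27.6%, and E2f2, Mcm3 and PCNA were added. The share of all genes thus moved in the same direction as the members' count under these settings. With the nearest gene alone, 4 members (11.1%) had a region in 3 of 3 replicates, against 8.1%, but CycB stood in place of Cdk1. For the count within 1 kb, that setting was kept to summits within 1 kb. In the conservative list, 3 of 9 percentiles lay more than 1 SD over replicates from the mean: 50.2 at CycE (34.1 reported), 48.1 at E2f1 (54.1 reported) and 85.0 at the first Dp region (81.8 reported). Leaving out a replicate for regions in any list kept the conservative list, which draws on all replicates. No paired analysis was possible because there is 1 group. Depth is unknown, so a member without a peak is not shown to be unbound.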
